A study of Drosophila melanogaster with 4 samples.

Results

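The wing imaginal disc library titled FH-cortoCD was compared with the library of the Gal4 driver alone, titled sd::Gal4/+, over all annotated transcripts. These are 2 of the 4 libraries of the series, and all 30950 annotation entries were kept. An entry is a transcript or a group of transcripts with the same exons. The entries fell into 15078 genes and unnamed loci, each represented by the entry with the most reads over the 4 libraries. Of these, 12124 had a read in the pair and 7475 had at least 200.

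The 2 titles name the groups, and the genotype labels do not follow them. The library titled FH-cortoCD carries the genotype label sd::Gal4>UAS::RpL12-Myc, and the library titled RpL12-Myc carries sd::Gal4>UAS::FH-cortoCD. The titles are used throughout, so that FH-cortoCD here always means the library titled so. The read counts in the study's own supplementary lists are assigned as the titles assign them. The first transgene encodes the doubly tagged (FLAG, HA) Corto chromodomain and the second a Myc-tagged copy of ribosomal protein L12, each under UAS control and driven by scalloped::Gal4. The other control library, w1118, came from the white-eyed line with which the driver and transgene lines had been made isogenic, and it carried neither driver nor transgene. The sd::Gal4/+ library carried the driver over a w1118 chromosome, so that Gal4 was shared by the 2 transgene libraries and by this control. Each library was made from 1 pool of 300 wing discs of third-instar female larvae, dissected in 6 batches of 50, so that there is 1 library a side and no replicate. No comparison below has a replicate check, and every call compares 2 libraries and not 2 genotypes.

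Gal4 is a yeast transcription factor that turns on any gene placed behind its UAS binding sites, and the scalloped driver makes it where the wing selector gene scalloped is transcribed, mostly in the future wing blade and hinge. Corto is an Enhancer of Trithorax and Polycomb, a cofactor both of Polycomb complexes, which keep genes silent, and of Trithorax complexes, which keep genes active. A chromodomain is a short fold that typically binds methylated lysines, and expressing it alone asks what an excess of this module does to transcription. The wing disc is an epithelial sac that carries muscle precursors and tracheal cells, and traces of other larval tissue may stay attached when it is dissected.

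Total counts were 43698298 in FH-cortoCD, 44736060 in RpL12-Myc, 26833482 in w1118 and 35219666 in sd::Gal4/+. Relative to sd::Gal4/+ the library sizes after TMM scaling (trimmed mean of M values, which sets the bulk of genes to no change) were 1.19 in FH-cortoCD, 1.24 in RpL12-Myc and 0.788 in w1118. The median log2 fold change of the genes with at least 200 reads was 0.01 on this scale. Raw read ratios lie higher by 0.25, a shift that takes list medians between -0.25 and -0.05 to 0 or above. All 9 markers of wing disc epithelium were found, and their summed level was 1012 RPM (reads scaled to the TMM library size) in FH-cortoCD, 977 in RpL12-Myc, 1280 in w1118 and 1163 in sd::Gal4/+. Intervals given below are exact 95% binomial intervals on fragments and cover counting error only.

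The transgene reads did not settle the labels. corto (3R:904244-912749) had 6164 reads in FH-cortoCD, 7836 in RpL12-Myc, 5424 in w1118 and 7766 in sd::Gal4/+, a log2 fold change of -0.58 between FH-cortoCD and sd::Gal4/+. Subtracting nested entries divided the gene into 4 consecutive segments. The segment at the start of the gene (3R:909759-912749, minus strand) held 5485 reads in FH-cortoCD, 7366 in RpL12-Myc, 4616 in w1118 and 6642 in sd::Gal4/+, a level of 130 RPM in FH-cortoCD, 168 in RpL12-Myc, 165 in w1118 and 187 in sd::Gal4/+. It was therefore lowest in the library titled for corto. The next segment (3R:909443-909758) held 164 reads in FH-cortoCD and 104 in RpL12-Myc, against 467 in w1118 and 707 in sd::Gal4/+, a log2 fold change of -2.36 in FH-cortoCD and -3.07 in RpL12-Myc. The segment was therefore low in both transgene libraries and at a log2 of only -0.25 in w1118. RpL12 (2R:19948199-19948516), the gene of the other transgene, had 29086 reads in FH-cortoCD, 24106 in RpL12-Myc, 9993 in w1118 and 17429 in sd::Gal4/+. Its log2 fold change over sd::Gal4/+ was 0.49 in FH-cortoCD and 0.16 in RpL12-Myc. A 5′ entry of RpL12 (2R:19947977-19948097) was at 1.48 in FH-cortoCD and 1.17 in RpL12-Myc. Of the 2 transgene libraries, corto as a whole and RpL12 were thus each higher in the one titled for the other gene. The later segments of corto went the other way, at 3.88, 4.73 and 7.45 RPM in FH-cortoCD against 2.37, 3.07 and 5.26 in RpL12-Myc.

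The white gene w (X:2684632-2690499), the eye-colour marker of P-element vectors, had 18794 reads in FH-cortoCD, 24501 in RpL12-Myc, 6 in w1118 and 7981 in sd::Gal4/+. Its log2 fold change of 0.98 (interval 0.93 to 1.04) in FH-cortoCD over sd::Gal4/+ puts more marker transcript in the library with a driver and a UAS transgene than in that with a driver alone. It separates both transgene libraries from both controls without telling the 2 transgenes from each other. scalloped itself had 10115 reads in FH-cortoCD, 9896 in RpL12-Myc, 9184 in w1118 and 10094 in sd::Gal4/+ (log2 -0.25). The noncoding RNA roX1, which coats the male X chromosome, had 428 reads in FH-cortoCD, 586 in RpL12-Myc, 814 in w1118 and 573 in sd::Gal4/+, and roX2 had 11 in FH-cortoCD, 21 in RpL12-Myc, 17 in w1118 and 8 in sd::Gal4/+. The log2 fold change of roX1 was -0.67, and roX2 was too shallow for a comparison.

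A gene was called when an exact binomial test of the 2 libraries gave an adjusted p below 4e-18 and the log2 fold change passed 1 in either direction. By this rule 201 genes were higher in FH-cortoCD than in sd::Gal4/+, 1.66% of those with a read, and 194 were lower, 1.6%. Between the control libraries the same rule called 6 genes higher in w1118 than in sd::Gal4/+, 0.0509% of 11777, and 65 lower, 0.552%. The study set this limit on the adjusted p from the pair of control libraries, so as to leave few calls between them, and the low count there follows from that choice. The spread of the fold changes, given below, does not use the limit. When FH-cortoCD was set against w1118, 290 genes were higher, 2.42% of 11966, and 157 were lower, 1.31%. Of the calls against sd::Gal4/+, 164 higher and 131 lower genes were also called against w1118.

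**Figure D1:**
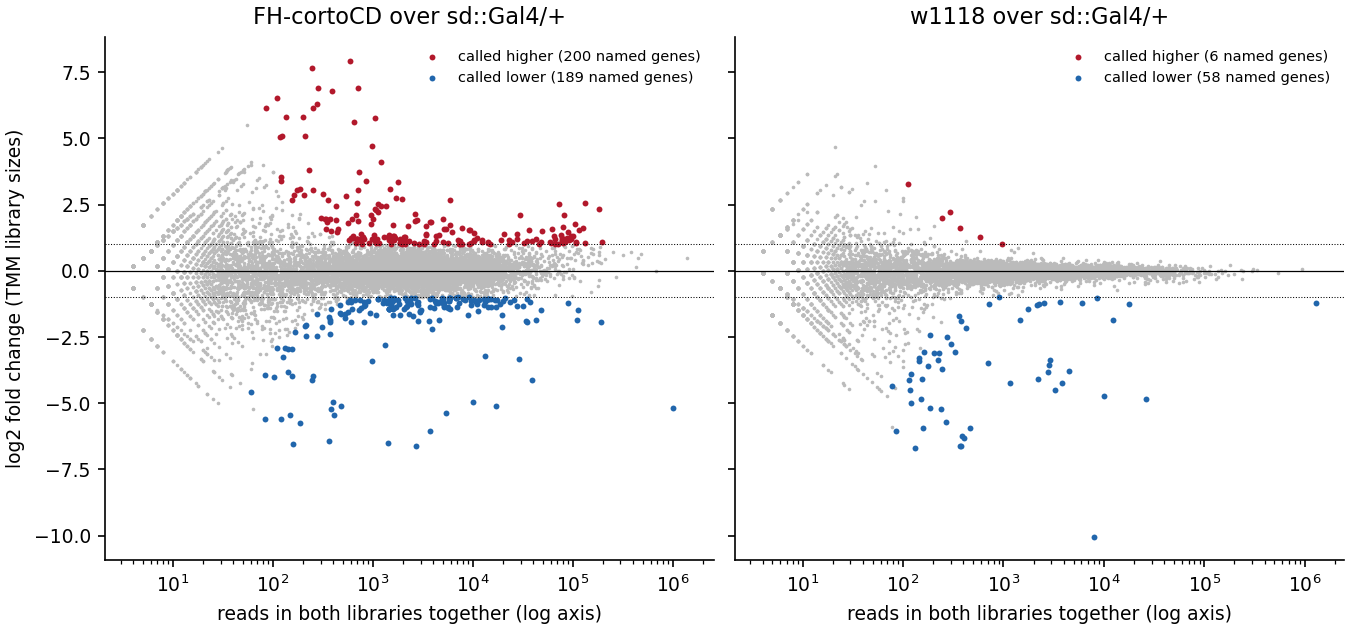
Log2 fold change of each named gene (vertical axis) against its reads in the pair of libraries (horizontal log axis), for FH-cortoCD over sd::Gal4/+ on the left and w1118 over sd::Gal4/+ on the right; red and blue points are named genes called higher and lower, and dotted lines mark a log2 of 1 and -1. At the same depth the points of the left panel spread further from 0 than those of the right panel.

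Read depth alone did not set this spread. Among genes with 2000 to 20000 reads in the pair, the robust SD of the log2 fold change was 0.36 for FH-cortoCD over sd::Gal4/+ and 0.11 for w1118 over sd::Gal4/+, where counting error gives 0.06. Above 20000 reads these values were 0.50 and 0.10, with a counting error of 0.02, and 14.4% of genes passed a log2 of 1 in FH-cortoCD over sd::Gal4/+ against 0.563% in w1118 over sd::Gal4/+. Below 200 reads the fold changes say little, since 18.9% of genes with 20 to 200 reads already passed a log2 of 1 between w1118 and sd::Gal4/+. With at least 200 reads and no test, 209 genes were above a log2 of 1, 2.8% of 7475, and 211 below -1, 2.82%. The same count for w1118 over sd::Gal4/+ was 7 above, 0.0956%, and 53 below, 0.724%.

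The library closest to FH-cortoCD was RpL12-Myc. Of 7511 genes with at least 200 reads in that pair, 25 were above a log2 of 1 and 31 below -1, together 0.746%, and the interquartile range of the log2 fold change was 0.22. That range was 0.52 between FH-cortoCD and sd::Gal4/+, 0.55 between FH-cortoCD and w1118, and 0.18 between w1118 and sd::Gal4/+. The 4 libraries therefore lay as 2 pairs, the transgene libraries and the controls. Whether this division follows the transgenes or any step at which the pairs were handled apart cannot be told apart with 1 library each.

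The largest rises among genes with at least 200 reads were in digestive proteases of the larval midgut. Jon65Aiii (3L:6043874-6044800), a Jonah serine protease, had 585 reads in FH-cortoCD, 4035 in RpL12-Myc, 0 in w1118 and 2 in sd::Gal4/+, a log2 fold change of 7.94 with a counting interval of 5.45 to 13.25. Jon65Aiv had 704 reads in FH-cortoCD, 5615 in RpL12-Myc, 8 in w1118 and 5 in sd::Gal4/+ (log2 6.89). The trypsin gene deltaTry had 255 reads in FH-cortoCD, 1855 in RpL12-Myc, 4 in w1118 and 0 in sd::Gal4/+, at least 71.4-fold higher in FH-cortoCD than the 3 reads taken as the floor of the sd::Gal4/+ library. Jon25Bi had 201 reads in FH-cortoCD, 627 in RpL12-Myc, 5 in w1118 and 0 in sd::Gal4/+, at least 56.3-fold higher than the same floor. yip7, another Jonah-like protease, had a log2 of 6.89 (4.39 to 12.20) from 282 reads in FH-cortoCD and 2 in sd::Gal4/+. CG30031, a trypsin-like gene, had a log2 of 7.67, with a lower limit of 4.77 and no upper limit, from 243 reads in FH-cortoCD and 1 in sd::Gal4/+.

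Of the 28 digestive protease genes listed, 8 rose and none fell in FH-cortoCD over sd::Gal4/+. All 8 were lower in FH-cortoCD than in RpL12-Myc in read count. The summed level of 8 midgut markers was 51.0 RPM in FH-cortoCD, 319 in RpL12-Myc, 0.822 in w1118 and 0.310 in sd::Gal4/+, and 3 of them were at 0 in w1118 and 4 in sd::Gal4/+. The amylase gene Amy-p and the mannosidase gene LManVI, markers of the same list, had only 3 and 2 reads in FH-cortoCD against 2 and 0 in sd::Gal4/+. In a pooled disc library, more cells of a tissue and more RNA per cell cannot be told apart. The part of attached midgut in these calls was not tested.

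Some genes stood apart in FH-cortoCD from every other library, and these were chosen after their values were seen. Of 7908 genes with at least 200 reads over the 4 libraries, 16 were more than a log2 of 1 above each of the other 3 libraries in FH-cortoCD and 4 were as far below. The same counts were 30 and 18 for RpL12-Myc, 6 and 63 for w1118, and 25 and 27 for sd::Gal4/+, so that FH-cortoCD had the fewest genes of its own below the rest. Cyp4g1 (X:361090-363366), a cytochrome P450 known for making the waterproofing hydrocarbons of the cuticle in oenocytes, had 204 reads in FH-cortoCD, 6 in RpL12-Myc, 3 in w1118 and 5 in sd::Gal4/+ (log2 5.10, interval 3.53 to 8.49). Its reads covered 77.6% of the bases of the gene in FH-cortoCD and 4.88% in sd::Gal4/+. The fatty acid synthase gene FASN3, known from the same cells, had 216 reads in FH-cortoCD, 15 in RpL12-Myc, 29 in w1118 and 13 in sd::Gal4/+ (log2 3.80). Both were therefore high in FH-cortoCD alone.

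ple, which encodes the tyrosine hydroxylase of dopamine and cuticle pigment synthesis, had 313 reads in FH-cortoCD, 55 in RpL12-Myc, 34 in w1118 and 41 in sd::Gal4/+ (log2 2.68, interval 2.04 to 3.46). The odorant receptor gene Or2a (X:2140264-2141609) had 961 reads in FH-cortoCD, 118 in RpL12-Myc, 19 in w1118 and 31 in sd::Gal4/+ (log2 4.70, interval 3.94 to 5.47). Or2a starts 184 bases after the end of fs(1)K10 on the same strand of the X chromosome, and the 3′ end of fs(1)K10 is the terminator of P-element expression vectors of the kind that carried these transgenes. fs(1)K10 had 3339 reads in FH-cortoCD, 4072 in RpL12-Myc, 1809 in w1118 and 2301 in sd::Gal4/+, a log2 fold change of 0.29. Whether reads from the vectors entered the count of either gene was not tested.

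CG14332 (3R:13247412-13247924) and CG42834 (3R:13244507-13244875), 2536 bases apart, were at 0 in both controls. CG14332 had 394 reads in FH-cortoCD and 142 in RpL12-Myc, and CG42834 had 278 in FH-cortoCD and 99 in RpL12-Myc. Against the floor of 3 reads in sd::Gal4/+ this was at least 110-fold higher for CG14332 and at least 77.9-fold higher for CG42834. Obp56d, an odorant-binding protein gene, had 1032 reads in FH-cortoCD, 284 in RpL12-Myc, 13 in w1118 and 16 in sd::Gal4/+. These genes shared the order FH-cortoCD, RpL12-Myc and then both controls.

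Below the other libraries lay Ilp6, an insulin-like peptide gene made mainly by the fat body, with 20 reads in FH-cortoCD, 95 in RpL12-Myc, 66 in w1118 and 96 in sd::Gal4/+. fat-spondin had 145 reads in FH-cortoCD, 313 in RpL12-Myc, 222 in w1118 and 289 in sd::Gal4/+, and NT5E-2 and LManI had 20 and 27 reads in FH-cortoCD against 86 and 60 in sd::Gal4/+. None of these 4 was called, and their log2 fold changes ran between -2.51 and -1.25.

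**Figure D2:**
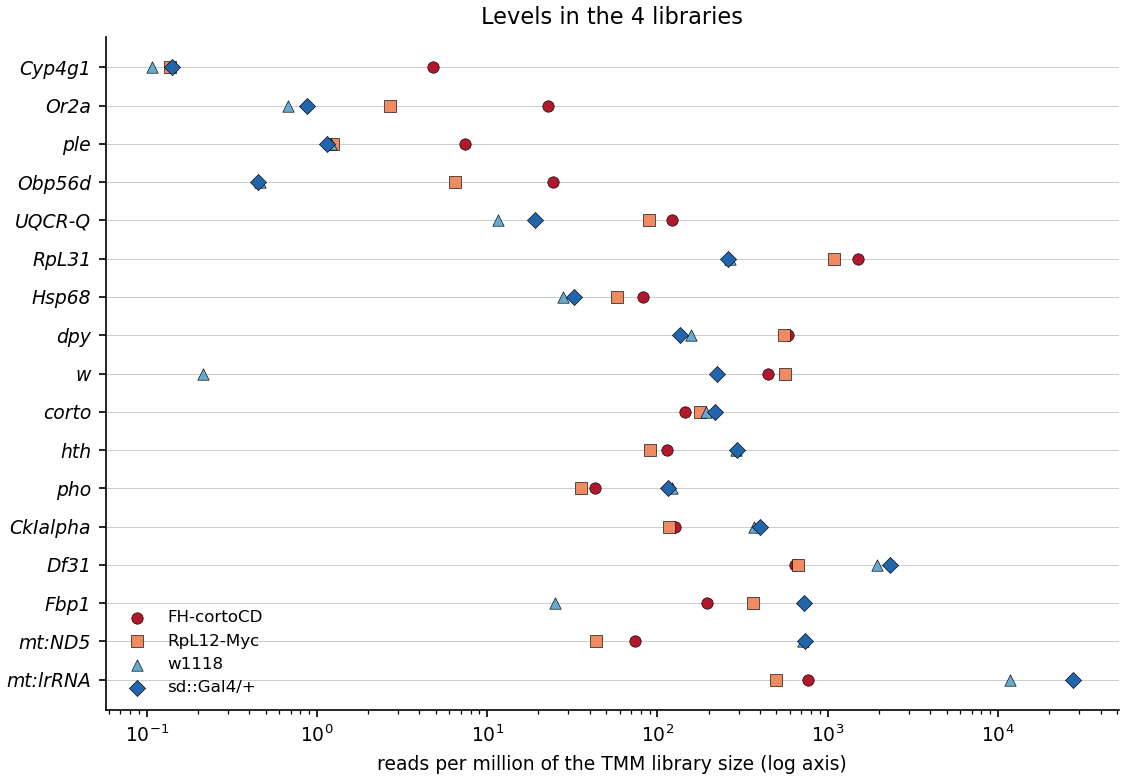
Level of 17 genes in each library as RPM of the TMM library size (horizontal log axis), with 1 row per gene and 1 point per library; levels of different genes are not scaled for length. Cyp4g1, Or2a, ple and Obp56d lie highest in FH-cortoCD, mt:ND5 and mt:lrRNA lie low in both transgene libraries, and Fbp1 is lowest in w1118.

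Ribosomal protein genes gave calls in 1 direction only. Of 53 cytosolic large-subunit ribosomal protein genes, 20 were called higher and none lower in FH-cortoCD over sd::Gal4/+, with a median log2 fold change of 0.72 over the 51 with a value. Of 39 small-subunit genes, 15 were called higher and none lower, with a median of 0.89. In RpL12-Myc over sd::Gal4/+ the medians were 0.62 and 0.69 for the large and small subunit, and in w1118 over sd::Gal4/+ they were -0.13 and -0.17. RpL31 (2R:5474946-5475211) had 63967 reads in FH-cortoCD, 47798 in RpL12-Myc, 7429 in w1118 and 9249 in sd::Gal4/+ (log2 2.54, interval 2.49 to 2.58), and RpS23 had 62416 in FH-cortoCD, 56586 in RpL12-Myc, 10792 in w1118 and 16835 in sd::Gal4/+ (log2 1.64).

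The ribosomal protein genes did not move as 1 block. Within the large subunit the log2 fold change ran from -0.91 for RpL38, with 14046 reads in FH-cortoCD and 22236 in sd::Gal4/+, to the 2.54 of RpL31. RpL4, the member of that list with the most reads, was at 0.60, with 204933 reads in FH-cortoCD and 113813 in sd::Gal4/+. RpS3A, which has 39580 reads in FH-cortoCD and 33401 in sd::Gal4/+, was at -0.01. RpL29 and RpL41 were among the genes that stood apart, since RpL29 had 68236 reads in FH-cortoCD, 32177 in RpL12-Myc, 4416 in w1118 and 13437 in sd::Gal4/+ (log2 2.09). RpL29 also differed between the controls, at -1.26 in w1118 over sd::Gal4/+.

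Among the 75 mitochondrial ribosomal protein genes 4 rose and 1 fell, with a median of 0.40. mRpL33 had 820 reads in FH-cortoCD and 177 in sd::Gal4/+ (log2 1.96), and mRpS5 had 489 in FH-cortoCD and 1117 in sd::Gal4/+ (log2 -1.44). The 48 proteasome subunit genes gave no call and a median of 0.38 over 38 with a value. The highest with 200 reads or more was Prosalpha3 at 0.83.

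The calls among respiratory chain genes were higher in the nuclear part and lower in the mitochondrial part. Of 88 nuclear genes of the chain 19 rose and none fell, with a median log2 of 0.71 over 77 with a value (0.51 in RpL12-Myc and -0.16 in w1118, both over sd::Gal4/+). UQCR-Q, a subunit of complex III, had 5172 reads in FH-cortoCD, 3937 in RpL12-Myc, 326 in w1118 and 678 in sd::Gal4/+ (log2 2.68, interval 2.52 to 2.85). ND-B17 of complex I was at 1.68 and COX5A of complex IV at 1.23, while ND-AGGG stayed at -0.37 without a call. UQCR-6.4, named for standing apart, had 2548 reads in FH-cortoCD, 1263 in RpL12-Myc, 418 in w1118 and 824 in sd::Gal4/+.

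All 13 messengers of the mitochondrial genome fell, with a median log2 of -3.39 in FH-cortoCD over sd::Gal4/+, and -4.24 in RpL12-Myc and -0.04 in w1118. The least affected were mt:Cyt-b at -1.46 and mt:CoIII at -1.50, whose 33823 reads in FH-cortoCD stood against 80212 in sd::Gal4/+. mt:ND2 had 151 reads in FH-cortoCD, 74 in RpL12-Myc, 5020 in w1118 and 5273 in sd::Gal4/+ (log2 -5.38), and mt:ATPase8 had 567 in FH-cortoCD against 16433 in sd::Gal4/+ (log2 -5.11). mt:CoI, which encodes the catalytic subunit of cytochrome oxidase, had 45828 reads in FH-cortoCD, 38379 in RpL12-Myc, 93096 in w1118 and 146749 in sd::Gal4/+ (log2 -1.93). The 4 messengers for cytochrome b and the cytochrome oxidase subunits thus fell by less than 2 on the log2 scale and the other 9 by more than 3.

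Among the 24 mitochondrial tRNA and rRNA genes 8 fell and none rose, with a median of -3.69 over 20 with a value. The large ribosomal RNA mt:lrRNA had 32368 reads in FH-cortoCD, 21890 in RpL12-Myc, 328579 in w1118 and 975604 in sd::Gal4/+ (log2 -5.16), with -1.23 in w1118 over sd::Gal4/+. Mitochondrial entries together took 0.333% of the counts in FH-cortoCD, 0.240% in RpL12-Myc, 2.29% in w1118 and 3.93% in sd::Gal4/+. The libraries were made from polyadenylated RNA, and the part of its capture in this share was not tested.

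The Hsp70 genes and a few other heat-inducible genes rose. All 6 Hsp70 genes were called higher, with a median log2 of 1.90 in FH-cortoCD over sd::Gal4/+, 1.31 in RpL12-Myc and -0.23 in w1118. The copies are nearly identical, and reads that matched more than once were removed, so that the split between copies is uncertain. Hsp70Bbb had 2241 reads in FH-cortoCD, 1490 in RpL12-Myc, 296 in w1118 and 425 in sd::Gal4/+ (log2 2.15). Of 11 other heat-inducible chaperone genes 3 rose, with a median of 0.90, against 0.45 in RpL12-Myc and -0.13 in w1118. Hsp68 had 3477 reads in FH-cortoCD, 2533 in RpL12-Myc, 781 in w1118 and 1148 in sd::Gal4/+ (log2 1.35), and Hsp26 was at 1.08. The alpha-crystallin gene l(2)efl, named after its value was seen, was at 2.67. It had only 136 reads in FH-cortoCD, 38 in w1118 and 18 in sd::Gal4/+. Its log2 was already 1.42 in w1118 over sd::Gal4/+, and it was not called against w1118.

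Other members of the heat response were not called. stv, a cochaperone of the BAG family, was just under the limit at 0.97, and Hsp27 was at -0.36, with 56384 reads in FH-cortoCD and 61021 in sd::Gal4/+. The 17 constitutive chaperones gave no call and a median of 0.26, and the most read of them, Hsc70-4, was at 0.49.

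Some short structural RNAs, a class most of which lacks a poly(A) tail, rose in FH-cortoCD. Of 34 such genes listed, 5 rose and none fell, and the median over the 12 with a value was 1.23 (1.41 in RpL12-Myc and -0.17 in w1118, both over sd::Gal4/+). RNaseMRP:RNA, the RNA of an enzyme that cuts ribosomal RNA precursors, had 641 reads in FH-cortoCD, 505 in RpL12-Myc, 12 in w1118 and 11 in sd::Gal4/+ (log2 5.61). 7SLRNA:CR32864, 1 of 2 copies for the RNA of the signal recognition particle, had 1163 reads in FH-cortoCD, 594 in RpL12-Myc, 15 in w1118 and 57 in sd::Gal4/+ (log2 4.10). RNaseP:RNA was at 2.12, and the minor spliceosome RNA snRNA:U12 at 1.96, with 278 reads in FH-cortoCD, 81 in RpL12-Myc, 55 in w1118 and 60 in sd::Gal4/+. lncRNA:CR34335, named for standing apart, had 116759 reads in FH-cortoCD, 59881 in RpL12-Myc, 14769 in w1118 and 16764 in sd::Gal4/+ (log2 2.55).

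Of 5 ribosomal RNA genes and pseudogenes 3 rose, with a median of 1.97 in FH-cortoCD over sd::Gal4/+, 1.90 in RpL12-Myc and -0.45 in w1118. 28SrRNA-Psi:CR40596 had 1657 reads in FH-cortoCD, 1377 in RpL12-Myc, 100 in w1118 and 137 in sd::Gal4/+ (log2 3.35). Small nucleolar and Cajal body RNAs differed from these groups, since none of the 219 listed was called and their median was -0.25. How much of each RNA class passed poly(A) selection was not tested.

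**Figure D3:**
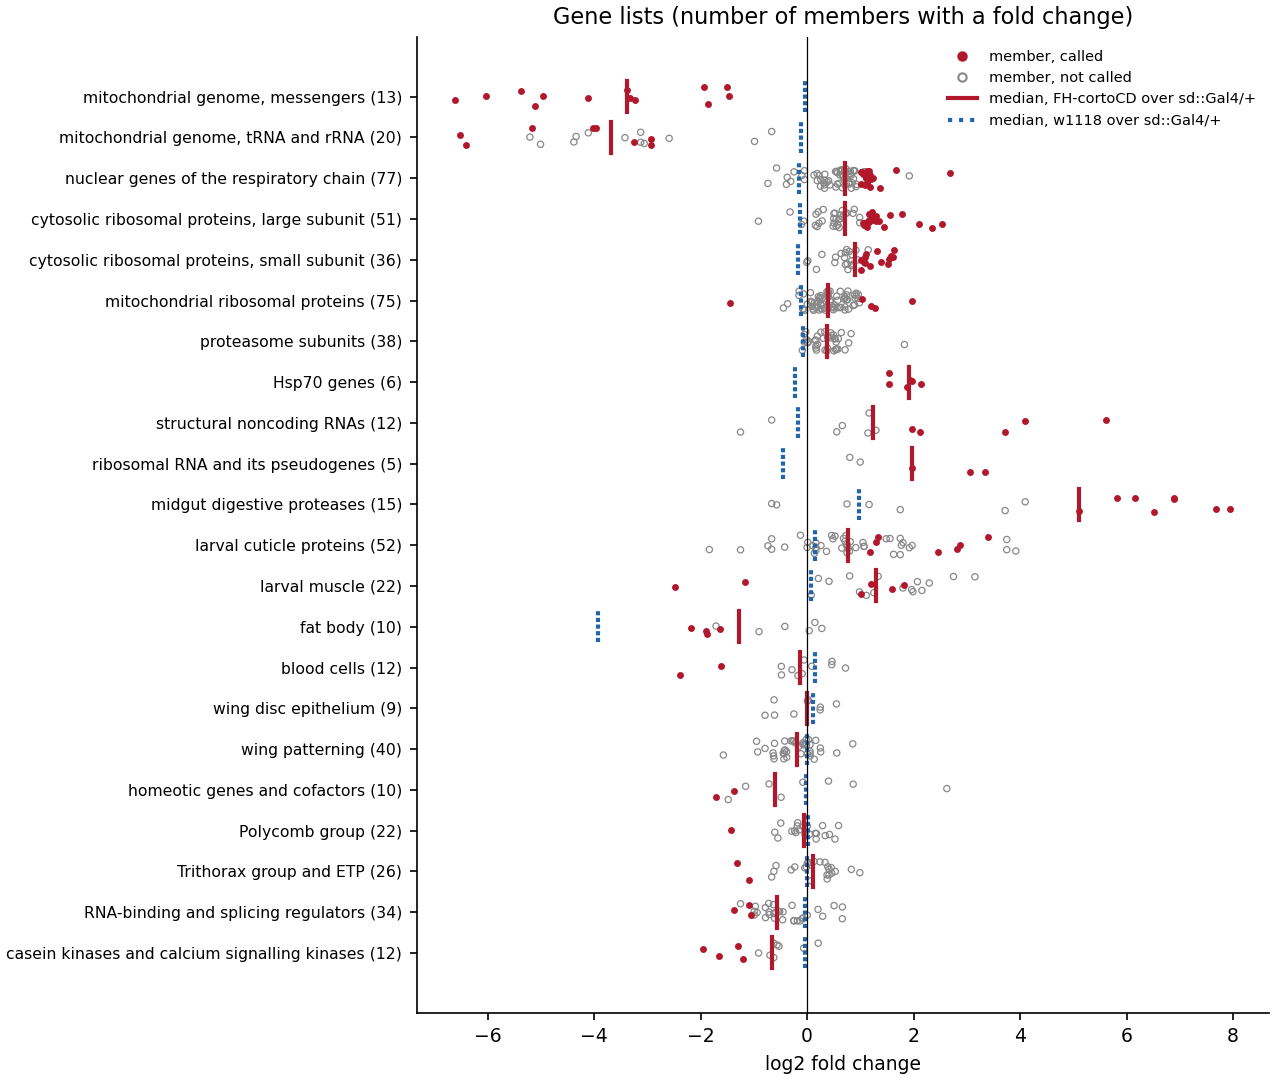
Log2 fold change of each member of 22 gene lists in FH-cortoCD over sd::Gal4/+ (horizontal axis), with called members as filled and other members as open points; the red bar is the median of the list and the blue dotted bar its median in w1118 over sd::Gal4/+. Ribosomal protein, respiratory chain, Hsp70 and midgut lists lie right of 0 and both mitochondrial genome lists left of it, while the wing disc epithelium list is centred on 0.

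Cuticle and apical matrix genes rose in a few members. Of 94 larval cuticle protein genes 7 rose and none fell, with a median of 0.76 over 52 with a value. Lcp1 had 789 reads in FH-cortoCD, 1190 in RpL12-Myc, 234 in w1118 and 63 in sd::Gal4/+ (log2 3.40, interval 2.85 to 3.94). Its log2 of 2.24 in w1118 over sd::Gal4/+ and of 1.16 in FH-cortoCD over w1118 show that much of this distance lay between the controls. Lcp2, Lcp3 and Lcp4 were likewise at 1.71, 2.14 and 2.01 in w1118 over sd::Gal4/+, and they were not called against w1118. Of 10 genes for apical matrix proteins 2 rose, with a median of 0.06. They were dpy, whose very long zona pellucida protein anchors epithelia to the cuticle, with 24756 reads in FH-cortoCD, 24449 in RpL12-Myc, 4436 in w1118 and 4829 in sd::Gal4/+ (log2 2.11), and zye, named after its value was seen, with 147 reads in FH-cortoCD and 17 in sd::Gal4/+ but 83 in the smaller w1118 library.

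Of 49 odorant-binding protein genes 3 rose and 1 fell, with a median of -0.25. Next to Obp56d the risers were Obp83g, with 253 reads in FH-cortoCD and 53 in sd::Gal4/+, and Obp99a at 1.47, and Obp56a, with 476 reads in FH-cortoCD and 914 in sd::Gal4/+, was at -1.19. Of 145 detoxification genes 1 rose, Cyp4g1, and 1 fell, Cyp6g1, with 66 reads in FH-cortoCD, 69 in RpL12-Myc, 34 in w1118 and 243 in sd::Gal4/+. Beside 1.66% of all genes called higher and 1.6% lower, these counts are no result about the list. The median of the list was -0.14.

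Larval muscle genes were mixed. Of 23 listed 4 rose and 2 fell, with a median log2 of 1.29 in FH-cortoCD over sd::Gal4/+, 1.30 in RpL12-Myc and 0.07 in w1118. The giant sarcomere protein gene sls had 4029 reads in FH-cortoCD, 4301 in RpL12-Myc, 730 in w1118 and 1125 in sd::Gal4/+ (log2 1.59), and the myosin heavy chain gene Mhc had 459 in FH-cortoCD and 109 in sd::Gal4/+ (log2 1.82). Other entries of sls were at 1.07 (3L:2040179-2091129) and -0.75 (3L:2090495-2091129), the latter from 190 reads in FH-cortoCD and 268 in sd::Gal4/+. In the other direction Tm1 had 8147 reads in FH-cortoCD and 15374 in sd::Gal4/+ (log2 -1.17), and TpnC25D had 38 in FH-cortoCD and 178 in sd::Gal4/+ (log2 -2.48). The reads of TpnC25D covered 44.0% of its bases in FH-cortoCD and only 10.1% in sd::Gal4/+. Its fall therefore rests on reads in a small part of the gene and is not shown for the whole transcript. The summed level of 7 larval muscle markers was 215 RPM in FH-cortoCD, 219 in RpL12-Myc, 99.1 in w1118 and 100 in sd::Gal4/+. For the 5 disc myoblast markers it was 121 in FH-cortoCD, 127 in RpL12-Myc, 142 in w1118 and 128 in sd::Gal4/+, and the list of 6 myoblast genes had no call and a median of -0.06.

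Fat body genes gave 4 falls among 10 listed and a median of -1.27 in FH-cortoCD over sd::Gal4/+. Fbp1, a receptor for larval serum proteins, had 8274 reads in FH-cortoCD, 16096 in RpL12-Myc, 697 in w1118 and 25614 in sd::Gal4/+ (log2 -1.88). Against w1118 the same gene was higher in FH-cortoCD, at 2.97, and the median of the list was 3.16. The storage protein gene Lsp1beta was not called against sd::Gal4/+, at 0.28, with 6110 reads in FH-cortoCD and 4238 in sd::Gal4/+ but 244 in w1118. The fat body sum of 6 markers was 662 RPM in FH-cortoCD, 949 in RpL12-Myc, 60.8 in w1118 and 1383 in sd::Gal4/+, so that the direction of these genes rested on the control library.

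The largest falls outside the mitochondrial genome were of this kind too. Alp8, an alkaline phosphatase gene, had 11 reads in FH-cortoCD, 10 in RpL12-Myc, 4 in w1118 and 399 in sd::Gal4/+ (log2 -5.43). Alp7 had 16 reads in FH-cortoCD, 4 in RpL12-Myc, 6 in w1118 and 462 in sd::Gal4/+, Fst had 12, 11 and 0 in FH-cortoCD, RpL12-Myc and w1118 against 374 in sd::Gal4/+, and CG16727 had 15 in FH-cortoCD, 0 in RpL12-Myc, 4 in w1118 and 386 in sd::Gal4/+. Each was present in sd::Gal4/+ and nearly absent from the other 3 libraries, and each had a positive log2 fold change in FH-cortoCD over w1118. These calls rest on the sd::Gal4/+ library alone, and what set it apart was not tested.

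The remaining cell type lists gave few calls. Of 12 blood cell genes 2 fell, with a median of -0.13, and the scavenger receptor gene crq had 644 reads in FH-cortoCD, 603 in RpL12-Myc, 948 in w1118 and 1670 in sd::Gal4/+ (log2 -1.63). Of 6 neuronal genes ple and futsch rose, with futsch at 1.07, while elav, which marks nearly all neurons, had 1174 reads in FH-cortoCD and 1927 in sd::Gal4/+ (log2 -0.97, not called). Among 5 tracheal genes obst-A fell, at -1.11, and verm was at 0.52. The marker sums were 97.2 RPM in FH-cortoCD, 137 in RpL12-Myc, 101 in w1118 and 78.1 in sd::Gal4/+ for blood cells. For neurons they were 28.2 in FH-cortoCD, 26.3 in RpL12-Myc, 53.4 in w1118 and 55.2 in sd::Gal4/+, and for trachea 1046 in FH-cortoCD, 1080 in RpL12-Myc, 910 in w1118 and 910 in sd::Gal4/+. Of the neuronal sums elav alone gave 27.8 RPM in FH-cortoCD and 54.2 in sd::Gal4/+. The other neuronal markers summed had at most 32 reads in a library, so these sums describe elav only. The 5 salivary glue genes had a median of 2.33 without a call, on levels that summed over 5 gland markers to 5.23 RPM in FH-cortoCD, 6.14 in RpL12-Myc, 7.40 in w1118 and 1.10 in sd::Gal4/+. Among 28 antimicrobial and Turandot genes only TotA fell, with 117 reads in FH-cortoCD, 178 in RpL12-Myc, 4 in w1118 and 264 in sd::Gal4/+, and the median was 0.19. Beside 1.6% of all genes called lower, this single fall is no result about the list.

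The lists of genes that make the wing pattern hold few members, and with 1.66% of all genes called higher and 1.6% lower a count of 0 or 1 in them is no result about these genes. The same holds for such counts in the other lists. None of the 9 epithelial markers was called and their median was 0.00. Their range was from ap, the dorsal selector, at -0.79, with 4896 reads in FH-cortoCD, 4900 in RpL12-Myc, 6168 in w1118 and 7115 in sd::Gal4/+, to en, the posterior selector, at 0.55, with 3859 in FH-cortoCD, 3912 in RpL12-Myc, 2104 in w1118 and 2214 in sd::Gal4/+. The wing selector vg was at -0.61 and the wing pouch gene nub at 0.25. None of 40 wing patterning genes was called, with a median of -0.19, and of these N, the Notch receptor, was at 0.86 and ci, the Hedgehog effector, at -0.95. Of 17 genes for cadherins, integrins and giant cytoskeletal or matrix proteins 1 rose, the cadherin gene ft, with 42317 reads in FH-cortoCD, 43774 in RpL12-Myc, 13827 in w1118 and 16531 in sd::Gal4/+ (log2 1.11). Their median was 0.44.

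At their most read entries, Polycomb and Trithorax group genes gave 3 calls, all lower, against 1.6% of all genes called lower. Of 22 Polycomb group genes only pho fell, and the median was -0.06. pho, which encodes a DNA-binding recruiter of Polycomb complexes, had 1815 reads in FH-cortoCD, 1568 in RpL12-Myc, 3422 in w1118 and 4113 in sd::Gal4/+ (log2 -1.43, interval -1.54 to -1.32). Of 26 Trithorax group and ETP genes lolal and Dsp1 fell, with a median of 0.10, while trx was at 0.83 and the acetyltransferase gene nej at 0.99, just under the limit. The study lists further entries of trx and nej as higher in FH-cortoCD, on read ratios without scaling. Those entries exceed a log2 of 1 by more than the 0.25 that scaling takes off. Parts of both genes therefore lay above that limit on the scale used here too. lolal had 1665 reads in FH-cortoCD, 1811 in RpL12-Myc, 2710 in w1118 and 3469 in sd::Gal4/+ (log2 -1.31).

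The call of Dsp1 depended on the part of the gene. The chosen entry of 2932 bases (X:16228334-16234476) was at -1.08, and an entry of 107 bases at the start of the gene (X:16227645-16227751) was at 1.20, with 537 reads in FH-cortoCD, 459 in RpL12-Myc, 210 in w1118 and 197 in sd::Gal4/+. Gnpnat and mask, named for this alone, were the other genes called both ways by different entries, 3 in all.

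Of 12 homeotic genes and cofactors 2 fell, with a median of -0.60 over 10 with a value. Antp, the thoracic homeotic gene, had 672 reads in FH-cortoCD, 485 in RpL12-Myc, 1377 in w1118 and 1855 in sd::Gal4/+ (log2 -1.72, interval -1.90 to -1.54). hth, the homeodomain cofactor of the wing hinge and body wall, had 4826 reads in FH-cortoCD, 3987 in RpL12-Myc, 8089 in w1118 and 10441 in sd::Gal4/+ (log2 -1.36), and its partner exd was at -0.49 without a call. Against w1118 these entries of Antp and hth had log2 fold changes of -1.63 and -1.34.

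Both falls were found in some entries of the gene and not in others. The chosen entry of Antp (3R:2721975-2724260) is at the 3′ end of the gene, which lies on the minus strand, and the entry at 3R:2735012-2736193 was at 0.03, with 859 reads in FH-cortoCD, 935 in RpL12-Myc, 604 in w1118 and 707 in sd::Gal4/+. Further entries of Antp were at -0.50 (3R:2757241-2758562) and -0.45 (3R:2796305-2824950). In hth the entry at 3R:6430810-6431090 was at 0.25, with 857 reads in FH-cortoCD, 849 in RpL12-Myc, 505 in w1118 and 606 in sd::Gal4/+, and that at the 3′ end (3R:6335569-6359728) was at -1.30. These calls therefore hold for the chosen entries and not for the whole genes.

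Of 17 histone and chromatin protein genes 3 fell, with a median of -0.16. Df31, which encodes an RNA-binding chromatin protein, had 27249 reads in FH-cortoCD, 29264 in RpL12-Myc, 54546 in w1118 and 82324 in sd::Gal4/+ (log2 -1.85). Parp1, the poly(ADP-ribose) polymerase gene, was at -1.35 and HmgZ at -1.28. Of 17 ecdysone response genes EcR and Hr3 fell, at -1.02 and -1.55, with a median of -0.36, and the early gene br was at -0.18. Of 16 cell death and stress genes puc, the feedback phosphatase of JNK signalling, fell at -1.16, the proapoptotic gene hid was at -0.93 and GstD1 at 0.93, and the median was -0.17. None of 8 dosage compensation genes was called, with a median of -0.19.

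Of 34 RNA-binding and splicing regulators 3 fell and none rose, and the median was -0.56. Of the list 28 were below 0, beside 48.9% of all genes with at least 200 reads. Like all lists here it was written with earlier results of these data known, so this count is a description only. The 3 called were Rbfox1 at -1.37, mub at -1.09 and sqd at -1.05, and the list also held SC35 at 0.66. Of 12 casein kinase and calcium signalling genes, a list written with such falls already known, 4 fell, with a median of -0.66. Cam, which encodes calmodulin, had 8288 reads in FH-cortoCD, 8960 in RpL12-Myc, 17710 in w1118 and 26840 in sd::Gal4/+ (log2 -1.95), and CkIalpha, casein kinase I alpha, had 5372 in FH-cortoCD, 5117 in RpL12-Myc, 10354 in w1118 and 14301 in sd::Gal4/+ (log2 -1.66). Both lists had medians near 0 in w1118 over sd::Gal4/+, at -0.03 and -0.04.

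Chromosome 4, the small and largely heterochromatic autosome, was lower as a whole. Of its 61 genes with at least 200 reads 55 were below 0 in FH-cortoCD over sd::Gal4/+, with a median of -0.57 (quartiles -0.84 and -0.25), 10 calls lower and 2 higher. The 6021 genes of the large autosomal arms had a median of 0.01 and the 1296 of the X chromosome 0.05. On chromosome 4 the median was -0.76 in RpL12-Myc over sd::Gal4/+, 0.06 in w1118 over sd::Gal4/+ and -0.64 in FH-cortoCD over w1118. Next to pho it held CaMKI at -1.20 and ci at -0.95, and the signalling ligand genes myo at -1.37 and mav at -1.02, named after their values were seen.

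The assembled heterochromatic arms had the same direction. Of 47 genes 38 were below 0, with a median of -0.45 (-0.69 in RpL12-Myc and 0.04 in w1118) and 8 calls lower and 2 higher. Set1 and vtd were named after their values were seen. Set1, a histone H3 lysine 4 methyltransferase gene on 3LHet, had 2878 reads in FH-cortoCD, 2333 in RpL12-Myc, 4015 in w1118 and 5119 in sd::Gal4/+ (log2 -1.08), and vtd, a cohesin subunit gene on the same arm, had 2034 in FH-cortoCD and 3736 in sd::Gal4/+ (log2 -1.13). Unplaced sequence U went the other way, with a median of 1.28 over 34 entries, 17 of them called higher and 2 lower, and -0.44 in w1118 over sd::Gal4/+. After a correction for length the medians were -0.50 for chromosome 4, -0.44 for the heterochromatic arms and 1.25 for U.

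The fold change followed transcript length. Protein-coding genes under 300 bases of exon had a median log2 of 0.55 (33 genes), those from 500 to under 750 bases 0.37 (504 genes), those from 1500 to under 2000 bases -0.00 (1251 genes) and those from 3000 to under 5000 bases -0.12 (1097 genes). The trend turned at the top, where 44 genes of 10000 bases or more had a median of 0.79 and 11 of them were called higher. In w1118 over sd::Gal4/+ the medians of the same length classes stayed between -0.20 and 0.13. Called higher genes had a median length of 632 bases (167 protein-coding genes), called lower genes 1784 bases (176), and all those with at least 200 reads 1764 bases (7139). Without ribosomal protein genes the classes under 300 bases and from 500 to under 750 were still at 0.49 and 0.30. A loess correction for length gave 181 genes called higher and 163 lower, of which 173 and 160 had also been called without it. The medians of the 2 ribosomal subunits were then 0.70 and 0.87. The correction was fitted over all entries with at least 200 reads, short entries of long genes among them, and not over genes. It moved the median of the large autosomal arms from 0.01 to 0.08. It therefore does not measure the part of length in the rises of short genes, such as those of ribosomal and respiratory proteins.

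**Figure D4:**
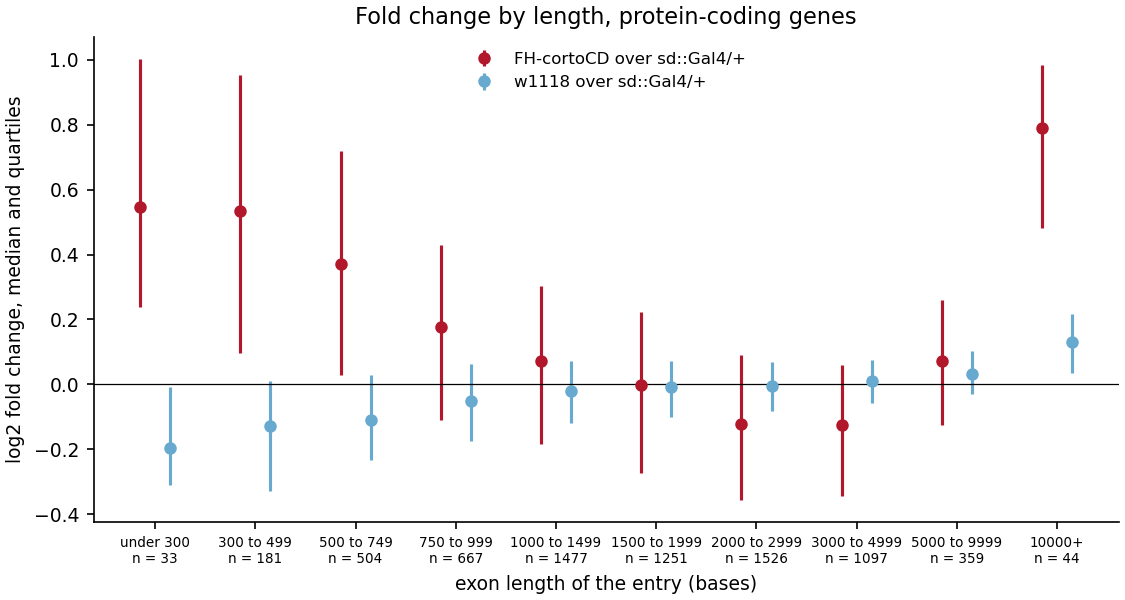
Median log2 fold change of protein-coding genes with at least 200 reads (points) with their quartiles (bars) by exon length of the chosen entry, for FH-cortoCD over sd::Gal4/+ and w1118 over sd::Gal4/+, with the number of genes under each class. The FH-cortoCD medians go from 0.55 in the shortest class down to -0.12 and up to 0.79 in the longest, and those of w1118 stay near 0.

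The fold change also differed along transcripts. In 1718 genes with 2 or more entries that do not overlap, each with at least 200 reads, the log2 fold change of the most 5′ entry was compared with that of the most 3′ entry. The 5′ entry exceeded the 3′ entry by a median of 0.39 (quartiles 0.05 and 0.76) in FH-cortoCD over sd::Gal4/+, and was above it in 77.8% of genes. In RpL12-Myc over sd::Gal4/+ the median was 0.37 and the share 72.6%. In w1118 over sd::Gal4/+ it was 0.02 and 54.2%. The excess passed 1 in 245 genes and -1 in 20 genes in FH-cortoCD, against 2 and 1 in w1118. It was 0.26 in genes whose entry lengths sum to fewer than 1500 bases and 0.71 from a sum of 8000 bases on. Bases shared by overlapping entries count more than once in these sums, so they also rise with the number of entries.

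Examples, chosen after their values were seen, show the size of this gradient. In the spectraplakin gene shot a 5′ entry held 243 reads in FH-cortoCD, 245 in RpL12-Myc, 25 in w1118 and 21 in sd::Gal4/+ (log2 3.28), and the 3′ entry held 1392 in FH-cortoCD, 1235 in RpL12-Myc, 1244 in w1118 and 1696 in sd::Gal4/+ (log2 -0.54). The differences were 3.38 in spen, 2.66 in zip and 2.60 in Mbs. Act5C went the other way, at -2.62, from a 5′ entry with 1371 reads in FH-cortoCD and 7183 in sd::Gal4/+. The direction of a call can therefore depend on which part of a gene an entry covers, and 327 of 391 further entries of the genes called lower, and 119 of 139 of those called higher, had the direction of the chosen entry. Of these further entries 108 of 391 and 76 of 139 also passed the log2 limit in that direction. Entries that overlap the chosen entry and share its reads were not left out, so part of this agreement is built in. How far coverage along transcripts, set by RNA quality or by library preparation, made these calls was not tested.

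**Figure D5:**
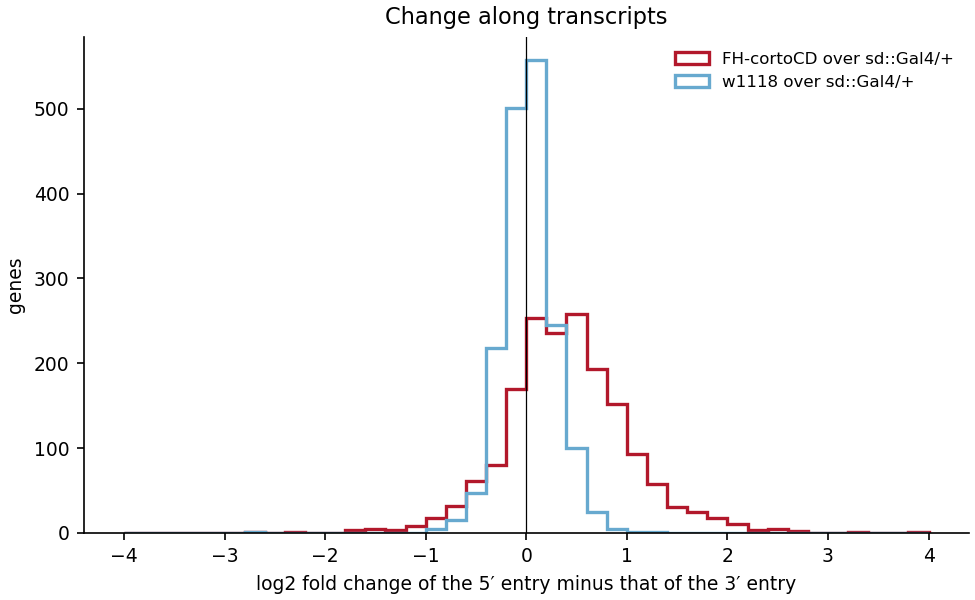
Number of genes (vertical axis) by the log2 fold change of the most 5′ entry minus that of the most 3′ entry (horizontal axis, values beyond 4 or -4 drawn at the edge), for FH-cortoCD over sd::Gal4/+ and w1118 over sd::Gal4/+. The FH-cortoCD curve is wider and lies right of 0, with a median of 0.39, and that of w1118 is narrow and centred at 0.02.

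Overlapping genes add a further limit, since 37 of the 395 called genes overlap another gene on the same strand and 73 on the opposite strand only. These are 9.37% and 18.5% of the called genes, beside at least 5.42% and 16.8% of all genes with a read in the pair. Those shares of all genes are lower limits, since overlaps were sought only for called genes and genes with at least 200 reads. Whether called genes overlap others more often than the rest was therefore not tested. The library kit was described as bi-directional and strand-aware counting is not given in the sources used here, so that reads from opposite strands cannot be told apart. RpL29, deltaTry, crq, TpnC25D, Hsp68, l(2)efl and RNaseMRP:RNA, all named above, overlap a gene on the opposite strand, and dpy overlaps a gene on the same strand.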

How the data were processed

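Polyadenylated RNA of 4 pools of wing discs was sequenced as 50 base read pairs. The authors trimmed and filtered the reads, aligned each read of a pair separately with Bowtie to the dm3 assembly, removed reads that matched more than once and counted overlaps with FlyBase exons. CASAVA 1.7, SAMtools and edgeR 1.6.10 are also given in the submitters' processing notes. The deposited count is the number of alignments of 1 read of the pair over an annotation entry, not normalised. The deposited fraction, the count divided by the alignments used, served only to recover alignment totals, and the deposited number of bases not covered gave the covered share of a gene. Counts of both reads were summed, and intervals used these sums halved. The test used the sums unhalved, so both reads of a fragment entered it as separate counts. Entries were named from RefSeq and, for retired transcripts, from identifiers in the study's tables. Named entries held 98.1% of counts.

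TMM factors came from all 4 libraries (R 4.3.3, edgeR 4.0.16). The pair was tested with edgeR's exact binomial test, Benjamini-Hochberg adjusted over all entries, with the study's cutoff of 4e-18, which was fixed on w1118 against sd::Gal4/+ to leave few calls there, and a log2 limit of 1. Simulated data of 30950 entries for FH-cortoCD against sd::Gal4/+ held counting error only, and only entries with a mean of at least 200 reads were changed. Of 200 entries changed by a log2 of 1.5, 2 and 3, 194, 200 and 200 were recovered, with 0 false calls. The simulation held no variation between libraries, so it says nothing about false calls in the real data. Fold changes against 0 reads used a floor of 3 reads. Named genes were the 12 largest rises and falls called with at least 200 reads, the member with most reads and up to 3 rises and 3 falls of each of 39 gene lists, and corto, RpL12, sd, w, fs(1)K10, roX1 and roX2; others are said to be chosen after their values were seen. The comparison and the gene lists were chosen with earlier results of these data known. With 1 library a side no p-value is printed for a gene. The alternatives were other scalings (DESeq2 1.42.0, library totals, none), each read alone, filters, other cutoffs, a length correction, all entries and w1118 as the control.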

Additional observations from a re-analysis of the deposited data

How the results depend on the processing

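No paired analysis was possible because each group has 1 library, and no replicate could be left out. The count of genes called higher was 201, and 352 without scaling, 55 with a log2 limit of 2, 621 with an adjusted p below 0.05 and 38 with an exact test that used the dispersion between the controls (0.01054). The count called lower was 194, and under the same 4 settings 113, 44, 575 and 26, and 356 when any entry of a gene could give the call. Without scaling the split was thus 352 higher against 113 lower. DESeq2 size factors gave 202 and 193, library totals 171 and 235, at least 10 reads in both libraries 191 and 179, first reads alone 156 and 144, and second reads alone 161 and 178. With w1118 as the control 10 called and named genes turned their direction: Alp8 (0.86), Fst (1.41), Alp7 (0.82), CG16727 (1.31), Fbp1 (2.97), Fbp2 (2.32), apolpp (2.19), NimC2 (0.66), TotA (4.28) and Cyp6g1 (0.36). Of 39 list medians 10 changed sign without scaling, 5 with w1118 as the control and 0 with DESeq2 size factors. The excess of 5′ over 3′ entries was 0.45 with at least 1000 reads in each entry. The cause of these shifts was not tested.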
